A study of Mus musculus with 12 samples.

Results

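The genes described here encode 9 proteins of the cytoplasmic particles in which oocytes keep dormant mRNA. They were chosen by name and function, as Ybx2, Ddx6, Lsm14a, Lsm14b, Eif4enif1, Eif4e1b, Patl2, Zar1 and Zar1l. All 9 are among the 23230 genes of the deposited table, and all 9 are among the 11502 genes that reached at least 1 FPKM in at least 1 library and were tested. FPKM counts sequenced fragments relative to the length of the transcript and the depth of the library, so it is a level per length. Genes are ranked by it below, and whether other differences between genes affect the ranks was not tested.

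A growing oocyte transcribes far more mRNA than it translates, and holds the surplus with short poly(A) tails until meiosis resumes. YBX2, called MSY2 in mouse oocytes, is a Y-box protein of germ cells that coats maternal mRNA and keeps it stable. DDX6 is the RNA helicase that marks P-bodies. LSM14A and LSM14B bind it together with EIF4ENIF1 (4E-T), which also holds the cap-binding protein. EIF4E1B is the cap-binding paralogue of oocytes, PATL2 an oocyte RNA-binding repressor of the PAT1 family, and ZAR1 and ZAR1L (ZAR2) are oocyte RNA-binding proteins with a zinc finger at the C-terminus.

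The libraries came from females of a C57BL6/ICR hybrid strain that were WT or Zar1/2-null. In the null mice both genes had been inactivated in the germ line with CRISPR/Cas9, Zar1l by a deletion in the first exon that shifts the reading frame and Zar1 by a short deletion followed by an early stop codon. There were 3 stages, each collected from both genotypes: growing oocytes from females of 13.5 days by the labels, germinal vesicle (GV) oocytes from females of 21 days at 44 h after PMSG, and ovulated oocytes, labelled MII, at 16 h after hCG. For growing oocytes the methods of the study give a younger age than the labels. The age of the females that gave ovulated oocytes is not in the labels. For superovulation the methods describe PMSG followed by hCG 44 h later, in females of the same age range as for GV oocytes. The label MII rests on the time of collection, and the study describes impaired progress through meiosis in null oocytes. In these libraries genotype and meiotic stage therefore cannot be told apart at this time point. The study addressed the question for selected mRNAs by RT-qPCR in WT oocytes arrested with nocodazole, which are not among the libraries. Each of the 6 groups had 2 libraries of 10 oocytes, and no treatment beyond the hormones was given.

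The spike-in scaling of the table is part of every comparison between stages and between genotypes. The authors multiplied each library by a factor from its ERCC spike-in RNA. The factors recovered from the values were 1 in both WT growing libraries and 0.862 and 0.779 in the Zar1/2-null growing ones. At the GV stage they were 0.836 and 0.697 in WT and 0.533 and 0.583 in null libraries. At MII they were 0.225 and 0.228 in WT and 0.283 and 0.252 in null libraries. In pools of oocytes, fewer cells and less RNA per cell cannot be told apart. The labels were checked against cell markers: all 8 oocyte markers examined stood at 1 FPKM or more in every group except WT MII, where 7 did, while 12 granulosa and cumulus markers summed to 4.21 to 27.1 FPKM in a library. At the GV stage their sums were 13.4 to 15.4 FPKM in WT and 9.95 to 11.8 FPKM in null libraries, and at MII 4.21 to 4.34 and 6.04 to 7.24 FPKM. Of these markers, Cyp19a1 was the highest in every group and Ptx3 was listed at 0 throughout. The sums hide a split at the GV stage. The means of Cyp19a1 (11.0 FPKM in WT, 7.42 in null), Fshr, Kitl and Tnfaip6 were lower in null oocytes. Those of Inha (0.461 in WT, 1.86 in null), Hsd17b1 (0.238 and 0.601), Inhba (0 and 0.170), Foxl2, Amh, Has2 and Ptgs2 were higher. At MII the means of Cyp19a1, Fshr, Inhba, Has2 and Tnfaip6 were higher in null oocytes. Those of Kitl (0.301 FPKM in WT, 0.0352 in null) and Ptgs2 were lower, and the remaining markers were at 0 in both genotypes. The labels do not say that the 2 libraries of a group came from different animals, so p-values measure the spread between these libraries only. An exact permutation test of 2 libraries against 2 cannot go below p = 0.333, and the tests below therefore come from limma on log2(FPKM + 1), fitted across all genes and all 12 libraries, with Benjamini-Hochberg adjustment. A gene is said to have risen or fallen where the adjusted p was under 0.05. Where a gene is low, the 1 FPKM added before the log shrinks its fold change.

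The starts of the 2 inactivated genes are shown first, because their alleles interrupt the frame soon after the start codon. Both genes lie on chromosome 5 of the mm9 assembly, on the minus strand: Zar1 at 72968353 to 72972323, with its start codon at 72972294 to 72972296, and Zar1l at 151309630 to 151320739, with its start codon at 151320732 to 151320734. The first 60 coding bases are given 5′ to 3′ with the start codon in capitals, from the GENCODE transcripts of that assembly; 17 of the 60 positions hold the same base in both.
Zar1: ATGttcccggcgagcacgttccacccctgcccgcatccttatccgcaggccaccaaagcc
Zar1l: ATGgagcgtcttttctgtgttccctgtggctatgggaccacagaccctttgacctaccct

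The end of each coding sequence encodes the zinc finger, the part by which the family is known, and it is shown to compare the 2 genes. A stretch of 120 bases is given for each, coding bases 955 to 1074 of Zar1 (which has 3 more codons before its stop) and 754 to 873 of Zar1l (which ends there). In-frame cysteine codons are in capitals. The pairing was the ungapped, in-frame one with the most identical bases, and in it 63 of 120 bases (52.5%) were identical, and 5 cysteine codons stood at the same place in both, of 5 in Zar1 and 6 in Zar1l.
Zar1: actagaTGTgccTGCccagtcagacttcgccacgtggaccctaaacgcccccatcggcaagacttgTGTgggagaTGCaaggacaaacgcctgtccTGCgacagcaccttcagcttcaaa
Zar1l: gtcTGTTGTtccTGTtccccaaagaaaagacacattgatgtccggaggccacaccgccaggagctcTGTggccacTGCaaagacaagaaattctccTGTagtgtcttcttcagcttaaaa

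The other members lie on chromosome 11 (Ybx2 at 69749298 to 69755107 and Eif4enif1 at 3102395 to 3144591), 9 (Ddx6 at 44412975 to 44448814), 7 (Lsm14a at 35129665 to 35174559), 2 (Lsm14b at 179759692 to 179770170 and Patl2 at 121945844 to 122011925) and 13 (Eif4e1b at 54885359 to 54889820) of mm9. Dormant mRNAs are woken through their 3′ ends, where a cytoplasmic polyadenylation element is read together with the polyadenylation signal. The last 100 bases of the longest complete transcript of each gene were therefore searched, on the transcript strand, for TTTTAT or TTTTAAT (the element) and for AATAAA or ATTAAA (the signal). In Lsm14a the element shares its last 3 letters with an AATAAA, and another AATAAA follows. For 8 members the annotated 3′ UTR fills this window; that of Zar1l has 14 bases. The signal was found in 7 of the 8, against 79.1% of 17888 genes with such a window, and the element in 2 of the 8, Ybx2 and Lsm14a, against 17.7%. Ybx2 was the member with no signal in the window. Both motifs were found in 1 of the 8, Lsm14a, against 14.5%. The sites of Ybx2, Lsm14a, Patl2 and Zar1 are given with the matched letters in capitals, since the results below turn on these 4 genes.
Ybx2: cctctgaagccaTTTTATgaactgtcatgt
Lsm14a: tgtTTTTAATaaaggccatggAATAAAgag
Patl2: ggccttgtatttAATAAAagtctaatctgg
Zar1: ataaagcctgtgAATAAAaggtattgcaaa

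The levels of the 9 mRNAs spanned a wide range in WT oocytes. Zar1 and Zar1l were the highest members in growing oocytes, at 664 ± 86.2 and 642 ± 3.21 FPKM (mean ± SD, n = 2, as for each mean here), and their libraries overlapped, so their order is not settled. Eif4enif1 followed at 170 ± 16.1 FPKM, then Lsm14a at 89.1 ± 1.58 and Patl2 at 82.5 ± 0.343 FPKM, Eif4e1b at 69.3 ± 20.9 FPKM, whose libraries overlapped those of Patl2, and Lsm14b and Ybx2 at 42.1 ± 3.59 and 36.1 ± 4.94 FPKM, which overlapped. Ddx6 was the lowest, at 2.75 ± 0.701 FPKM, with 26.9% of tested genes below it. Whether the gene model or the restriction to uniquely mapped reads lowers its level was not tested. Its longest annotated transcript has 6065 bases, of which 4250 are 3′ UTR. In WT GV oocytes Zar1l led with 519 ± 20.8 FPKM, ahead of Zar1, whose libraries were at 439 and 423 FPKM, and Ddx6 was again last. By quantitative RT-PCR the study found Zar1 more abundant than Zar1l, so the order of these genes differs between the methods. In WT MII oocytes the order was another one: Zar1 stood at 78.0 ± 7.97 FPKM and Lsm14a at 63.3 ± 3.78 FPKM, while Zar1l, Patl2, Ybx2 and Ddx6 were the 4 lowest, at 3.92 ± 1.12, 2.28 ± 0.042, 1.26 ± 0.387 and 0.505 ± 0.131 FPKM.

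**Figure D1:**
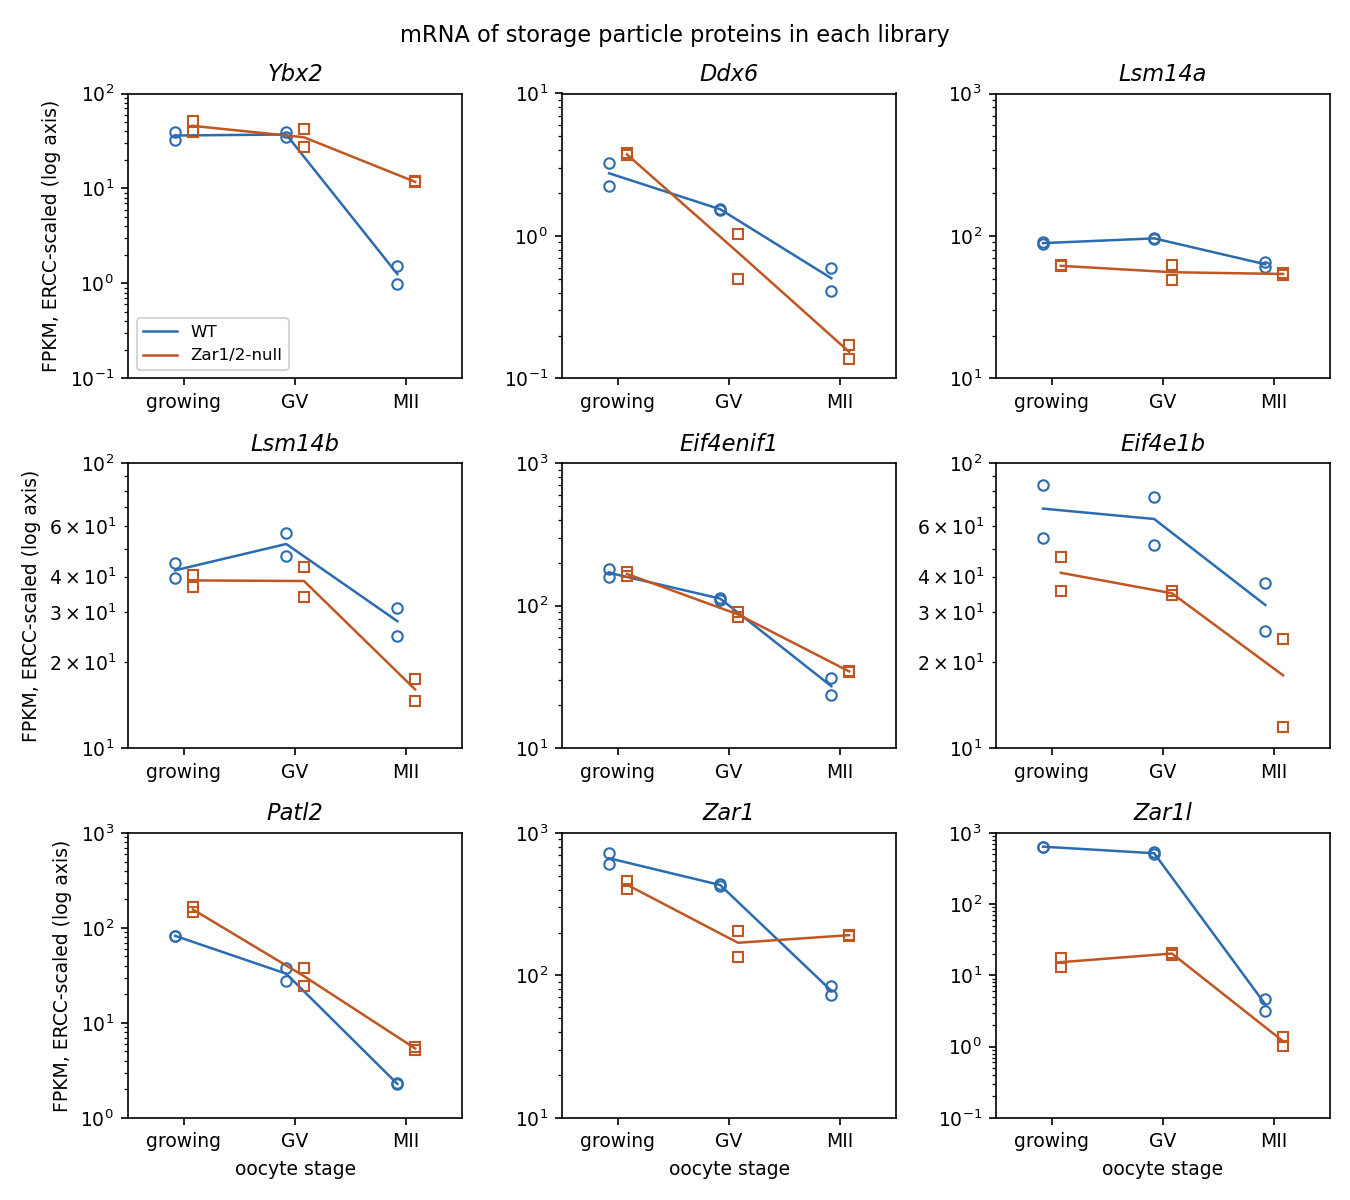
FPKM after ERCC scaling (log axis, a range of its own in each panel) of the 9 mRNAs at 3 stages; circles are single WT libraries, squares single Zar1/2-null libraries, and lines join the means of 2. At MII the 2 null libraries of Ybx2 lie at 11.6 and 11.9 FPKM, above the WT libraries at 0.982 and 1.53 FPKM, while at the GV stage the 2 genotypes overlap.

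In growing oocytes, the granulosa and cumulus markers differed between genotypes as well, and their part in the results was not tested. The 12 summed to 23.4 and 27.1 FPKM in the WT libraries and to 6.25 and 11.1 FPKM in the null ones, with Cyp19a1 at a mean of 17.9 against 5.13 FPKM. The means of Fshr, Inha, Kitl, Hsd17b1, Inhba, Ptgs2 and Foxl2 were lower in null oocytes too. Those of Tnfaip6 (0.090 FPKM in WT, 0.114 in null) and Has2 (0.0091 and 0.0281) were higher, and Amh and Ptx3 were at 0. For the members, the question is what loss of both ZAR proteins had done before full size was reached. Patl2 rose in Zar1/2-null oocytes, and Lsm14a, Zar1 and Zar1l fell. The other 5 members did not pass the test. Thus 1 member was higher and 3 were lower, where 10.6% of all genes tested were higher and 24.4% lower.

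Patl2 stood at 82.3 and 82.8 FPKM in the WT growing libraries and at 165 and 148 FPKM in the null ones, and the genotypes did not overlap. Of all genes tested, 22.4% lay higher in both null growing libraries than in both WT ones. The mean of Patl2 was 1.89-fold higher (log2 fold change 0.91 ± 0.21 SE, adjusted p = 0.00580). Lsm14a stood at 90.2 and 87.9 FPKM in WT and at 61.1 and 62.3 FPKM in null growing oocytes, a log2 difference of -0.52 ± 0.15 (adjusted p = 0.0182). The RNA listed as Zar1l stood at 639 and 644 FPKM in WT and at 17.5 and 13.2 FPKM in null oocytes, which is 41.9-fold lower. Zar1 RNA was still abundant in the null libraries, at 407 and 460 FPKM against 603 and 725 FPKM in WT (log2 fold change -0.61 ± 0.20, adjusted p = 0.0321). Since the Zar1 allele removes a few bases only, reads from the rest of the transcript do not check the genotype.

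Among the members that did not pass, Eif4e1b was at 84.1 and 54.5 FPKM in WT and at 47.0 and 35.5 FPKM in null growing oocytes (log2 fold change -0.72 ± 0.33, adjusted p = 0.115). Ybx2 was at 32.6 and 39.6 FPKM in WT and at 39.3 and 52.0 FPKM in null oocytes, with overlap (95% interval of the log2 difference -0.16 to 0.81). Eif4enif1 and Lsm14b differed by -0.02 and -0.11 on the log2 scale. The calls of Lsm14a and Zar1 rested on every growing library, since leaving out any 1 of the 4 gave adjusted p from 0.0657 to 0.0879 for Lsm14a and from 0.0577 to 0.192 for Zar1. Both were also lost with no ERCC scaling (adjusted p 0.296 and 0.210).

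At the GV stage the members that changed were lower in Zar1/2-null oocytes. Lsm14a, Ddx6, Zar1 and Zar1l fell, none rose, and 5 did not pass the test. These 4 of 9 stand beside 40.6% of all genes tested that were lower at this stage, and 2.83% that were higher. The median log2 fold change of the 9 members was -0.54, and that of all genes tested -0.38. The 9 include the inactivated Zar1 and Zar1l, and the median of the other 7 was -0.43, close to that of all genes.

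Lsm14a stood at 97.4 and 94.9 FPKM in WT GV oocytes and at 62.2 and 49.0 FPKM in null GV oocytes, with no overlap (log2 fold change -0.79 ± 0.15, adjusted p = 0.00171). Zar1 was 2.54-fold lower, from 439 and 423 FPKM in WT to 136 and 203 FPKM in null oocytes (adjusted p = 0.000371), and Zar1l was 25.6-fold lower, from 533 and 504 FPKM to 20.9 and 19.6 FPKM. Ddx6 was low in all 4 libraries, at 1.56 and 1.52 FPKM in WT and 1.03 and 0.502 FPKM in null oocytes (log2 fold change -0.54 ± 0.17, adjusted p = 0.0237). Ybx2 was at 35.2 and 38.9 FPKM in WT and at 42.0 and 27.2 FPKM in null oocytes, with WT inside the range of the null libraries (95% interval of the log2 difference -0.61 to 0.36). Patl2, which differed in growing oocytes, overlapped here, at 38.0 and 27.9 FPKM in WT and 24.2 and 37.8 FPKM in null oocytes.

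Both cap-associated mRNAs lay lower in each null GV library than in either WT library without passing the test in the fit over all libraries. At this stage 63.6% of all genes tested were likewise lower in both null libraries than in both WT ones. Eif4enif1 was at 114 and 110 FPKM in WT and 89.7 and 83.9 FPKM in null oocytes (adjusted p = 0.0800), and Eif4e1b at 75.8 and 51.6 FPKM in WT and 34.3 and 35.6 FPKM in null oocytes (adjusted p = 0.0635, and 0.0428 when only the GV libraries were fitted). Lsm14b was likewise lower in both null libraries, 43.4 and 33.8 FPKM against 56.8 and 47.3 FPKM (adjusted p = 0.0775). The GV calls of Lsm14a and Ddx6 were lost with no ERCC scaling (adjusted p 0.163 and 0.303). That of Ddx6 was also lost when only the GV libraries were fitted (adjusted p 0.0601) and without WT GV replicate 1, WT GV replicate 2 or null GV replicate 2 (adjusted p 0.0681 to 0.165).

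**Figure D2:**
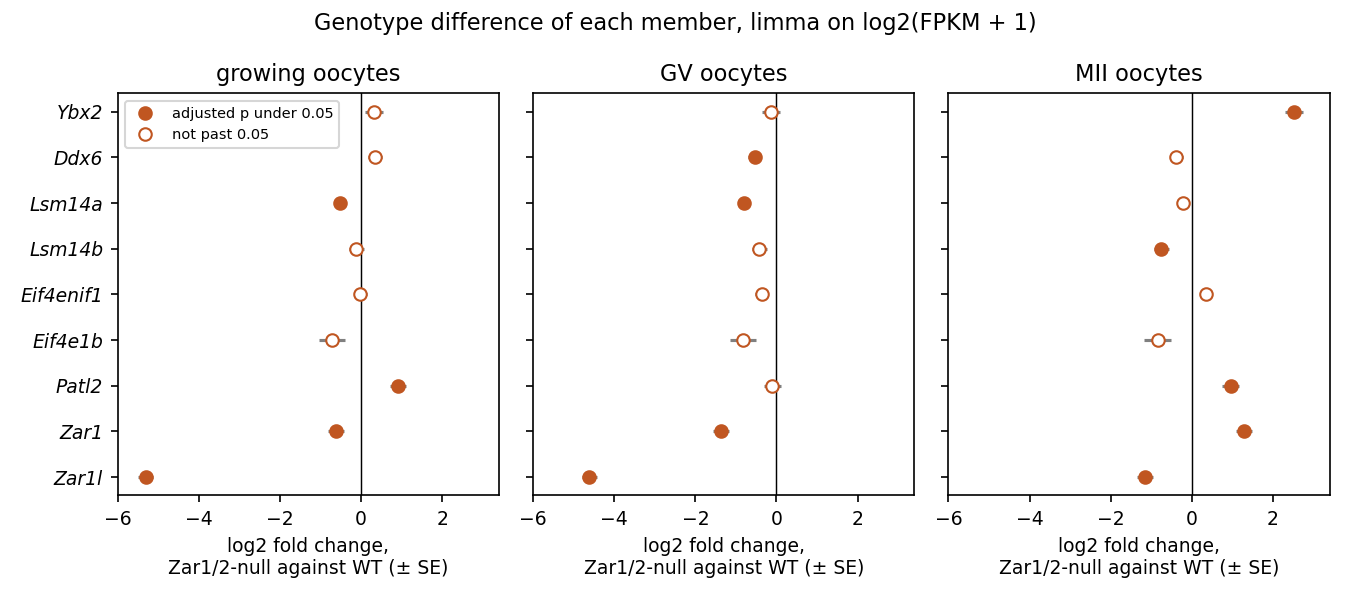
Log2 fold change of Zar1/2-null against WT oocytes for each member at 3 stages, from limma on log2(FPKM + 1), with bars of ± 1 SE; filled points have an adjusted p under 0.05. Ybx2 moves from -0.13 at the GV stage to 2.51 at MII, and Zar1 from -1.37 to 1.29.

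At MII the members split. Ybx2, Patl2 and Zar1 rose in Zar1/2-null oocytes relative to WT, and Lsm14b and Zar1l fell. The other 4 did not pass the test. The 3 higher members stand beside 21.5% of all genes tested and the 2 lower ones beside 10.3%.

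Ybx2 showed the largest genotype difference among the members at MII. It stood at 0.982 and 1.53 FPKM in the WT libraries and at 11.6 and 11.9 FPKM in the null libraries, which is 9.35-fold higher by mean FPKM (log2 fold change 2.51 ± 0.22, adjusted p = 4.61e-06). The position of Ybx2 among the tested genes, taken on group means, depends on the factors only through the weight of each library in the mean. In WT 80.5% of tested genes were below it at the GV stage and 52.8% at MII, and in null oocytes 83.9% were below it at either stage. Under 12 alternative settings of the limma fit its log2 difference at MII ran from 2.33 to 3.16 and passed the test in all 12.

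Patl2 stood at 2.25 and 2.31 FPKM in WT MII oocytes and at 5.60 and 5.16 FPKM in null ones, a 2.36-fold difference (adjusted p = 0.00385). Zar1 RNA was at 83.6 and 72.4 FPKM in WT and at 190 and 194 FPKM in null MII oocytes, 2.46-fold higher (adjusted p = 0.000381), although it had been lower in the null oocytes at both earlier stages. Zar1l was low in both genotypes by then, at 3.13 and 4.72 FPKM in WT and 1.36 and 1.01 FPKM in null oocytes (adjusted p = 0.000580). Patl2, Zar1 and Zar1l also passed the test in all 12 alternative settings.

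Lsm14b fell at MII, from 31.1 and 24.7 FPKM in WT to 17.4 and 14.7 FPKM in null oocytes (log2 fold change -0.76 ± 0.18, adjusted p = 0.00771). This call was lost without WT MII replicate 1 (adjusted p 0.0757) or null MII replicate 2 (adjusted p 0.0658). Its paralogue Lsm14a was at 65.9 and 60.6 FPKM in WT and 55.0 and 53.1 FPKM in null oocytes (adjusted p = 0.304). Eif4e1b was at 25.7 and 37.9 FPKM in WT and 24.1 and 11.9 FPKM in null oocytes, and its 2 null libraries differed by about as much as the genotypes (adjusted p = 0.0758). Eif4enif1 was at 23.6 and 30.9 FPKM in WT and 34.2 and 34.9 FPKM in null oocytes (adjusted p = 0.123). Ddx6 was under 1 FPKM in all 4 libraries, at 0.412 and 0.597 FPKM in WT and 0.171 and 0.136 FPKM in null oocytes (adjusted p = 0.113). Ddx6 (log2 fold change -1.03, adjusted p = 0.00349), Lsm14a (-0.46, 0.0334) and Eif4e1b (-1.11, 0.00705) passed as well with no ERCC scaling, each lower in the null oocytes.

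The change from the GV stage to MII asks what became of these mRNAs during maturation. In WT oocytes all 9 fell on the deposited scale, but so did 93.4% of all genes tested, and 0.104% rose. The sizes differed widely between members. Zar1l fell 132-fold by mean FPKM (log2 fold change -6.74 ± 0.19), Ybx2 29.5-fold (-4.08 ± 0.22) and Patl2 14.5-fold (-3.36 ± 0.21), while Lsm14a fell 1.52-fold (-0.60 ± 0.15, adjusted p = 0.00234) and Lsm14b 1.87-fold (-0.88 ± 0.18). Zar1 and Eif4enif1 lay between, at 5.53-fold and 4.12-fold lower. The call of Eif4e1b (-0.98 ± 0.33, adjusted p = 0.0141) was lost without WT GV replicate 1 (adjusted p 0.132) or WT MII replicate 1 (0.118).

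The direction of the smaller changes depended on the scaling. The median of all genes tested was -1.28 on the log2 scale as deposited, -0.43 with no ERCC scaling and -0.13 when libraries were scaled to their median gene. With no ERCC scaling, WT Lsm14a, Lsm14b and Eif4e1b rose from GV to MII (log2 fold changes 1.14, 0.84 and 0.74; adjusted p 7.07e-05, 0.00112 and 0.0358), whereas Ybx2, Patl2 and Zar1l fell under all 3 scalings. The position among tested genes moved with it: Lsm14a went from above 90.8% to above 97.2% of tested genes, Lsm14b from 84.8% to 93.9% and Eif4e1b from 87.1% to 94.6%, while Patl2 went from 79.0% to 63.5% and Zar1l from 98.3% to 72.2%. On the deposited scale every WT MII library of these genes was below every WT GV library, as was the case for 97.1% of all genes tested.

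**Figure D3:**
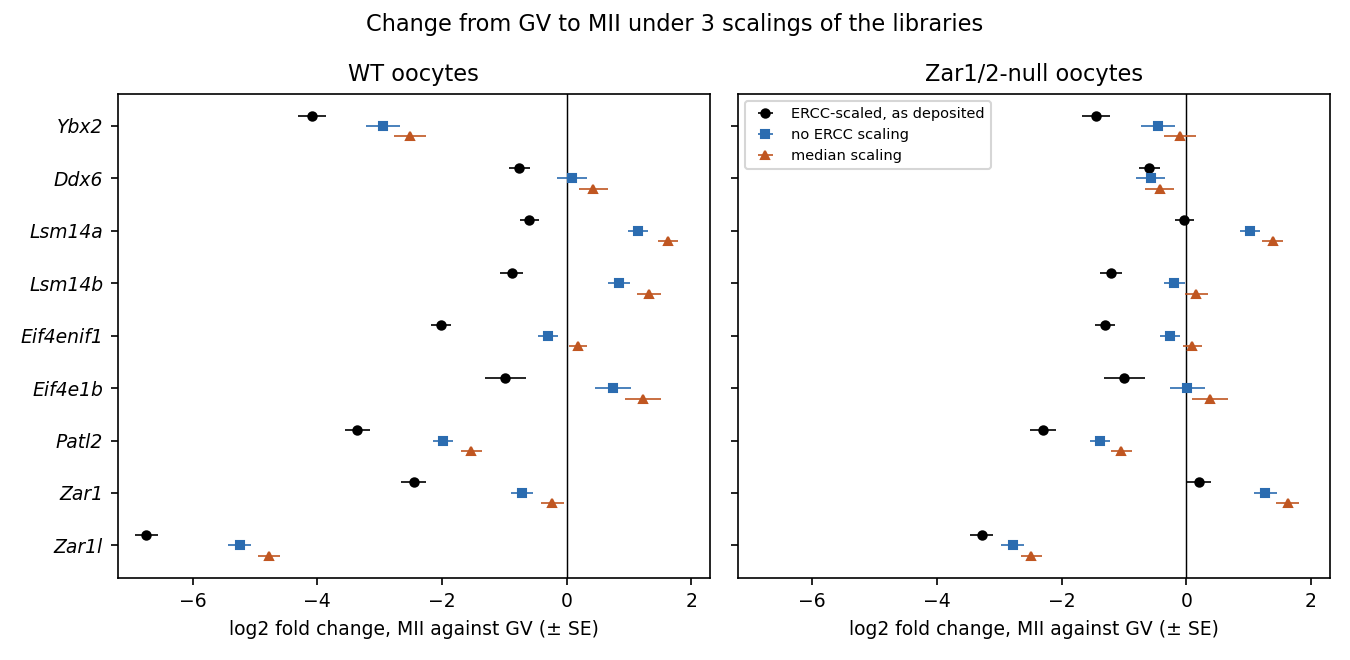
Log2 fold change from GV to MII of each member in WT and Zar1/2-null oocytes, with bars of ± 1 SE; circles are the deposited ERCC-scaled values, squares the values with no ERCC scaling and triangles median-scaled values. WT Ybx2, Patl2 and Zar1l stay left of 0 under all 3, while WT Lsm14a lies at -0.60 as deposited and at 1.14 with no ERCC scaling.

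In Zar1/2-null oocytes 7 of 9 members fell from GV to MII, beside 68.7% of all genes tested that fell and 0.209% that rose. Zar1 (log2 fold change 0.21 ± 0.20, adjusted p = 0.365) and Lsm14a (-0.03 ± 0.15, adjusted p = 0.864) did not pass the test. Null Zar1 went from 136 and 203 FPKM to 190 and 194 FPKM, and with no ERCC scaling it rose (log2 fold change 1.26, adjusted p = 0.000111). Ybx2 fell 2.95-fold by mean FPKM and Patl2 5.77-fold. Of these 7 falls, only those of Patl2 and Zar1l also passed with no ERCC scaling. Without it, those of Ybx2 (log2 fold change -0.46, adjusted p = 0.172), Lsm14b (-0.19, 0.348), Eif4enif1 (-0.26, 0.185), Ddx6 (-0.57, 0.0528) and Eif4e1b (log2 fold change 0.017) were lost, and Lsm14a rose (1.02, adjusted p = 0.000226). The calls of Ddx6 (without null GV replicate 1, adjusted p 0.0811) and Eif4e1b (without null GV replicate 1, null GV replicate 2 or null MII replicate 2, adjusted p 0.0622 to 0.201) also depended on single libraries.

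The difference between genotypes in this change was tested as an interaction. It passed the test with a positive sign for 5 members, which means that they fell less in null than in WT oocytes, or did not fall: Zar1l (3.46 ± 0.26), Zar1 (2.66 ± 0.28, adjusted p = 3.00e-05), Ybx2 (2.63 ± 0.31, adjusted p = 8.20e-05), Patl2 (1.06 ± 0.29, adjusted p = 0.0169) and Eif4enif1 (0.71 ± 0.22, adjusted p = 0.0298), all on the log2 scale. It passed with a negative sign for none. Null Zar1l ended near 1 FPKM, where the added 1 FPKM shortens its fall. Among all genes tested 33.9% had a higher and 0.643% a lower value, and the median of all genes was 0.48, so Eif4enif1 lay close to the table as a whole. With no ERCC scaling Eif4enif1 (0.03) and Patl2 (0.59, adjusted p = 0.0878) did not pass, and Lsm14b was negative (-1.04, adjusted p = 0.00983). The call of Patl2 was lost without WT GV replicate 1, WT MII replicate 1 or null MII replicate 1 (adjusted p 0.0542 to 0.0749). That of Eif4enif1 was lost without any 1 of 5 libraries (WT GV replicate 1, WT MII replicate 1, null GV replicate 2 and both null MII replicates, adjusted p 0.0595 to 0.113). For Lsm14b, Eif4e1b and Ddx6 the 95% intervals of the interaction, -0.89 to 0.24, -1.04 to 1.01 and -0.36 to 0.68, span 0.

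From the growing to the GV stage, WT Patl2, Ddx6, Eif4enif1 and Zar1 fell and no member rose, beside 28.7% of all genes tested that fell and 2.77% that rose. Patl2 fell 2.51-fold, from 82.3 and 82.8 FPKM to 38.0 and 27.9 FPKM (log2 fold change -1.32 ± 0.21, adjusted p = 0.00192). WT Ybx2, at 32.6 and 39.6 FPKM before and 35.2 and 38.9 FPKM after, overlapped between the stages. The calls of Ddx6 (adjusted p = 0.0303), Eif4enif1 (0.0180) and Zar1 (0.0352) were lost with no ERCC scaling (0.440, 0.452 and 0.455), and WT Lsm14b then rose (log2 fold change 0.68, adjusted p = 0.0403). They were also lost without single libraries: Zar1 without any 1 of the 4 (0.0621 to 0.212), Ddx6 without WT growing replicate 1 or either WT GV replicate (0.0783 to 0.179), and Eif4enif1 without replicate 2 of either stage (0.0925 to 0.123).

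In null oocytes the same 4 genes fell over growth, and none rose, beside 55.9% of all genes tested that fell and 4.76% that rose. Patl2 fell 5.04-fold, from 165 and 148 FPKM to 24.2 and 37.8 FPKM, and Ddx6 3.74-fold against the floor of 1 FPKM, from 3.68 and 3.80 FPKM to 1.03 and 0.502 FPKM. Zar1 fell 2.56-fold and Eif4enif1 1.93-fold. Null Zar1l (log2 fold change 0.94, adjusted p = 0.00268) and Lsm14b (0.53, 0.0328) rose over growth with no ERCC scaling, and the fall of Eif4enif1 was lost (-0.39, 0.0880). Median scaling gave rises of Zar1l (adjusted p = 0.00139), Lsm14a (0.48, 0.0431) and Lsm14b (0.61, 0.0265). The growth change differed between genotypes for Patl2 (-1.01 ± 0.29, adjusted p = 0.0419) and Ddx6 (-0.89 ± 0.24, adjusted p = 0.0332), both more negative in null oocytes, where 11.3% of all genes tested were lower in this sense and 2.58% higher. Both calls were lost without any 1 of 6 libraries, for Patl2 all 4 growing libraries and replicate 1 of either GV group (adjusted p 0.0861 to 0.140), and for Ddx6 all except WT growing replicate 1 and null GV replicate 1 (0.0537 to 0.0950). Wherever limma called no member in a direction, the count at an unadjusted p under 0.05 was also 0, and so was the count over 3-fold where that rule applies, except for the growth interaction of Zar1l (0.70, adjusted p = 0.102).

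Other genes of mRNA storage and P-bodies were taken from a list of 36, of which 31 were tested. In growing oocytes 2 were higher and 4 lower in null than in WT oocytes, where 10.6% of all genes tested were higher and 24.4% lower. At the GV stage 20 were lower, beside 40.6% of all genes, and none higher (0 also at an unadjusted p under 0.05). At MII 6 were higher, beside 21.5%, and 6 lower, beside 10.3%. The median log2 fold changes of the list were -0.16, -0.65 and -0.11, against -0.16, -0.38 and 0.06 over all genes tested. By group, 9 of 11 granule proteins (STAU, FMR1, CAPRIN, G3BP and ATXN2 families), 6 of 9 tested 3′-end binders and translational regulators (CPEB, PUM, DAZL and IGF2BP proteins), 4 of 5 decapping partners of DDX6 and 1 of 6 paralogues of members fell in null GV oocytes, each to be read against the same 40.6%. At MII the granule proteins had 1 higher and 2 lower, the binders 1 higher and 3 lower, the decapping partners 2 higher and 1 lower, and the paralogues 2 higher. All calls of this list are on the deposited scale, and how many hold with no ERCC scaling was not counted. Without that scaling the falls at the GV stage shrank unequally. The means of Fxr1 were then 169 FPKM in WT and 162 in null GV oocytes, and those of Dcp2 10.7 and 4.39. Over all genes tested, the number lower in null GV oocytes was 4666 as deposited and 1554 with no ERCC scaling.

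**Figure D4:**
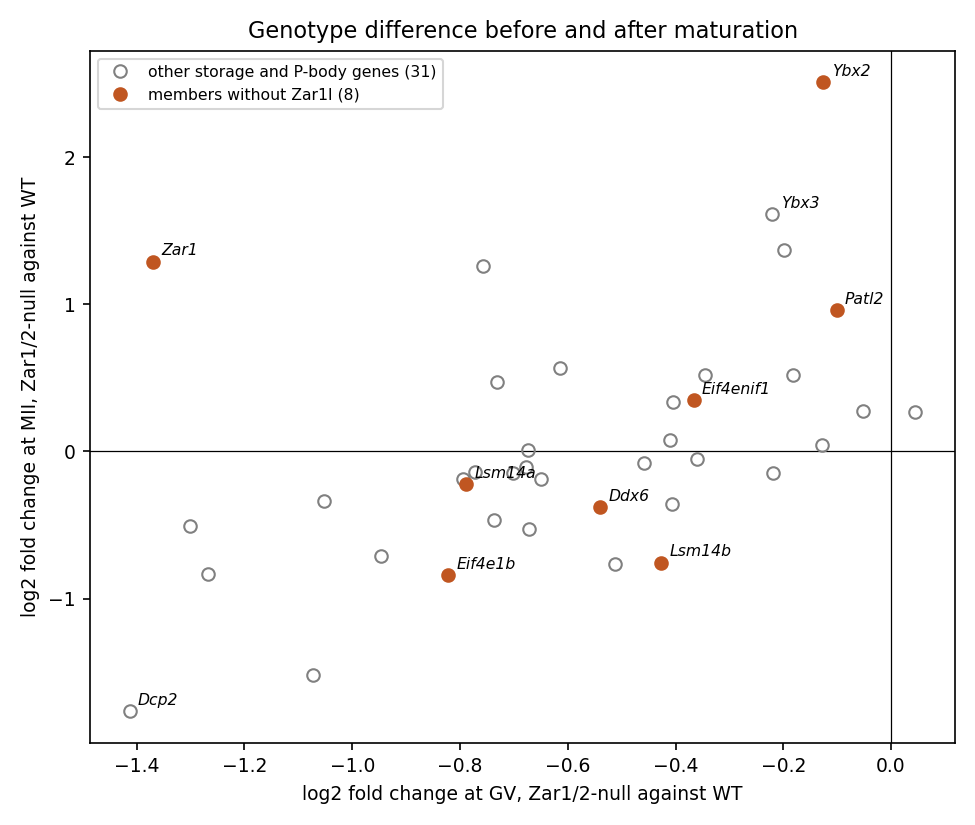
Log2 fold change of Zar1/2-null against WT oocytes at the GV stage (horizontal) and at MII (vertical); filled points are 8 members, open points the 31 other tested storage and P-body genes, and Zar1l (-4.61 and -1.15) lies outside the plotted range. Ybx2 and its paralogue Ybx3 lie at the upper right, at 2.51 and 1.61 on the vertical axis, and Dcp2 at the lower left.

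The 6 paralogues of members were followed by name. Ybx3, a Y-box protein listed under its older symbol Csda, overlapped between genotypes at the GV stage and not at MII: it stood at 96.5 and 105 FPKM in WT GV oocytes and 113 and 65.8 FPKM in null GV oocytes, then at 2.76 and 3.93 FPKM in WT MII and 12.5 and 11.9 FPKM in null MII oocytes. It was 3.64-fold higher in null than in WT MII oocytes (log2 fold change 1.61 ± 0.23, adjusted p = 0.000236). Of all genes tested, 43.5% lay higher in both null MII libraries than in both WT ones. Ybx1, a Y-box protein not confined to germ cells, had a mean of 36.9 FPKM in WT GV oocytes, where Ybx2 had 37.0 FPKM. Ybx1 was at 12.6 and 11.5 FPKM in WT MII and 18.7 and 11.6 FPKM in null MII oocytes, which overlap. Eif4e, the general cap-binding protein, was at 31.2 and 28.9 FPKM in WT MII and 31.1 and 23.5 FPKM in null MII oocytes, after 224 and 154 FPKM in WT at the GV stage. Eif4e2 was at 0.372 and 0.207 FPKM in WT MII and 0.491 and 0.613 FPKM in null MII oocytes. Eif4e3 rose in null MII oocytes, to 103 and 93.4 FPKM from 72.8 and 63.7 FPKM in WT (log2 fold change 0.52 ± 0.16, adjusted p = 0.0264). Patl1, the PAT1 paralogue of somatic cells, fell in null GV oocytes from 4.37 and 4.17 FPKM to 2.45 and 2.15 FPKM (adjusted p = 0.00183), a stage at which Patl2 did not pass the test.

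Outside the paralogues, Dcp2, the catalytic subunit of the decapping enzyme, was the gene of the list that was over 3-fold different between genotypes and passed the test. It stood at 8.87 and 7.53 FPKM in WT GV oocytes and 2.40 and 2.49 FPKM in the null ones, 3.35-fold lower. At MII it was at 3.82 and 4.19 FPKM in WT and 0.494 and 0.447 FPKM in null oocytes, at least 4.01-fold lower against the floor of 1 FPKM. It fell in null growing oocytes too, from 8.36 and 7.06 FPKM to 3.07 and 2.96 FPKM, so its genotypes did not overlap at any stage. Of all genes tested, 47.4% in growing, 63.6% in GV and 27.8% in MII oocytes lay lower in both null libraries than in both WT ones.

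The genes whose log2(FPKM + 1) was most like that of a member over the 12 libraries are given as a description; all points share the ERCC factors, and the 3 stages set most of the variation. For Ybx2 they were Tspan33 (Pearson r = 0.997), Rps20 (0.993) and Dcpp1 (0.993), and r was over 0.9 for 1419 of the 5965 genes that averaged 5 FPKM or more. For Patl2 they were Rab3ip (0.997), Gpn3 (0.996) and Mllt11 (0.995), and for Eif4enif1 they were Acox3 (0.997), Pdxdc1 (0.997) and Gpr19 (0.996). Zar1 was most like Mesp2 (0.993), 5930434B04Rik (0.978) and Samm50 (0.976), and Zar1l most like Nsd1 (0.985), 5730469M10Rik (0.983) and Pola1 (0.980). Lsm14a was most like Nus1 (0.987), Ireb2 (0.968) and BC016423 (0.963), and 95 genes had r over 0.9 with it. Without the ERCC factors those numbers became 379 for Lsm14a and 474 for Ybx2. Lsm14b was most like Ncoa3 (0.977), Acbd3 (0.975) and Snrnp27 (0.973), Eif4e1b like Cnot3 (0.965), 9530008L14Rik (0.956) and D7Ertd443e (0.952), and Ddx6 like Ube2q2 (0.985), Rspry1 (0.981) and BC031781 (0.976). With no ERCC scaling 6 of the 27 genes named here stayed among the 3 most alike, from 5 members.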

How the data were processed

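Pools of 10 growing, GV or MII oocytes, 2 libraries for each stage and genotype, went through Smart-seq2, which primes on poly(A); whether tail length moved the values was not tested. Per the labels and methods, the authors cut reads to 50 bp, aligned them by TopHat2 2.1.1 to mm9, kept uniquely mapped reads and ran Cufflinks 2.2.1 on UCSC gene models. The authors deposited FPKM values multiplied by an ERCC factor for each library. The table holds no counts, so the depth behind a value is unknown. Zeros made up 30.9% to 38.6% of genes in a library.

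The factors were recovered by finding the number that returned every value to 6 significant digits (100% of values). Differences were tested by limma 3.58.1 (R 4.3.3) on log2(FPKM + 1), with group means over 12 libraries (6 residual degrees of freedom) and an intensity trend, for 9 contrasts. A gene was tested if any library reached 1 FPKM for it. Folds use mean FPKM with a floor of 1 FPKM. The fit was tested on simulated data. Python 3.11.15 with pandas 2.3.3 and scipy 1.17.1 was used for the rest. Sequences and positions came from GENCODE vM1 on NCBIM37, the mm9 assembly. Median scaling divided each library by its median ratio to the mean library.

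Members and lists were chosen with earlier results of these data known. All 9 members were named, with the 6 paralogues and the genes of the other list that passed limma and were over 3-fold different. Alternatives were no ERCC scaling, median scaling, a pseudocount of 0.1, a mean of at least 5 FPKM, no filter, a replicate block, no trend, the groups compared only, a 3-fold rule and each library left out. The protein and translation assays of the study were not analysed here.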

Additional observations from a re-analysis of the deposited data

Results flagged for a closer look

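Changes between stages that differed between the genotypes in limma's interaction test are listed here. From GV to MII the difference, null minus WT on the log2 scale, was 3.46 for Zar1l (adjusted p = 2.73e-06), 2.66 for Zar1 (3.00e-05), 2.63 for Ybx2 (8.20e-05), 1.06 for Patl2 (0.0169) and 0.71 for Eif4enif1 (0.0298). From the growing to the GV stage it was -1.01 for Patl2 (adjusted p = 0.0419) and -0.89 for Ddx6 (0.0332). With no ERCC scaling and with median scaling the growth difference of Ddx6 was -0.95 and -0.87, close to its deposited size, but neither passed the test (adjusted p 0.117 and 0.159). The maturation difference of Patl2 was 0.59 and 0.49 under these scalings, and that of Eif4enif1 0.03 and -0.089; none of these passed.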

How the results depend on the processing

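Of 1107 values of single members under alternatives, 887 kept their direction and side of the threshold, 118 lost a call, 32 gained one, 19 reversed, and 51 without a call changed sign. With no ERCC scaling the members called numbered 2 instead of 4 in growing and 2 instead of 4 in GV oocytes, 8 instead of 5 at MII, 2 instead of 4 for WT growth, 4 instead of 7 for null maturation and 1 instead of 2 for the growth interaction, and with median scaling 2, 2, 8, 1, 4 and 0. With the 3-fold rule the counts were 1 in growing, 1 in GV and 2 in MII oocytes, 0 for WT growth, 5 instead of 9 for WT maturation, 2 instead of 4 for null growth and 2 for null maturation. With no filter WT growth had 2. The growth interaction had 0 with a pseudocount of 0.1, a mean of at least 5 FPKM, no filter or the groups compared only. The 3-fold rule asks for a larger difference by construction; otherwise the cause was not tested.

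Reversed log2 fold changes from GV to MII in WT were, with no ERCC scaling, Ddx6 0.086, Lsm14a 1.14, Lsm14b 0.84 and Eif4e1b 0.74, and with median scaling Ddx6 0.43, Lsm14a 1.63, Lsm14b 1.32, Eif4enif1 0.18 and Eif4e1b 1.23. In null oocytes they were Lsm14a 1.02 and Eif4e1b 0.017 with no ERCC scaling, and Lsm14a 1.38, Lsm14b 0.16, Eif4enif1 0.095 and Eif4e1b 0.37 with median scaling. Over null growth they were Lsm14b 0.53 with no ERCC scaling, and Lsm14a 0.48 and Lsm14b 0.61 with median scaling. The maturation interaction of Eif4enif1 was -0.089 with median scaling. Of all genes called, the share that was higher moved with the scaling as well (deposited, no ERCC scaling, median scaling): 30.4%, 54.8% and 49.9% for growing, 6.51%, 34.7% and 40.8% for GV oocytes, 67.6%, 51.2% and 47.7% at MII, 8.80%, 53.1% and 45.8% for WT growth, 0.112%, 29.3% and 45.0% for WT maturation, 7.85%, 40.1% and 47.2% for null growth, 0.303%, 32.6% and 47.6% for null maturation, 98.1%, 70.1% and 59.1% for the maturation interaction and 18.6%, 37.3% and 48.3% for the growth interaction.

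Leaving out each library in turn, the lone library of a group being taken to vary like the others, the members called were 2 to 2 in growing, 3 to 5 in GV and 4 to 6 in MII oocytes, 1 to 2 for WT growth, 8 to 9 for WT maturation, 4 to 5 for null growth, 5 to 7 for null maturation, 3 to 6 for the maturation interaction and 0 to 2 for the growth interaction. Calls gained were Lsm14b at GV (without null GV replicate 1, adjusted p 0.0446), Eif4e1b at MII (without null MII replicate 1, 0.0155), Eif4enif1 at MII (without WT MII replicate 2, 0.0461), Ybx2 in null growth (without null GV replicate 1, 0.0234), Zar1l in null growth (without null growing replicate 1, 0.0458), Zar1 in null maturation (without null GV replicate 2, 0.0406), Lsm14a in the maturation interaction (without null GV replicate 1, 0.0178) and Zar1 in the growth interaction (without null GV replicate 2, 0.0273).

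The replicate numbers pair no samples by the labels: the correlation of same-numbered deviations over 15 pairs of groups ran from -0.117 to 0.163. The ERCC factor was 1 in both WT growing libraries, although the study lists unequal ERCC shares for them, so each was its own reference. Whether other libraries were scaled to the WT growing library of the same number was not tested. A correlation over genes hardly shows a factor shared by all genes of a library. With the replicate number as a block 6 members instead of 4 were called at the GV stage (Lsm14b and Eif4e1b gained, adjusted p 0.0193 and 0.0439) and 6 instead of 5 in the maturation interaction (Lsm14a gained, 0.0392); the block changed no other call. With the null GV numbers crossed, a choice made after seeing the data, 6 were called at the GV stage.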

Other observations

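The mRNAs of the 7 members other than Zar1 and Zar1l summed to 496 and 488 FPKM in WT growing libraries and 518 and 511 FPKM in null growing libraries. At the GV stage the sums were 419 and 372 FPKM in WT and 297 and 268 FPKM in null oocytes, and at MII they were 150 and 158 FPKM in WT and 148 and 132 FPKM in null oocytes. As a share of all FPKM in a library, which no factor per library can alter, the 7 mRNAs took 0.117% and 0.131% at MII in WT libraries and 0.0706% and 0.0747% in null ones, while at the GV stage the shares overlapped, at 0.0726% and 0.0774% in WT and 0.0739% and 0.0635% in null libraries. The largest part of the WT MII share came from Lsm14a, Eif4e1b, Lsm14b and Eif4enif1.

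Over the 12 libraries, Patl2 and Eif4enif1 were alike (Pearson r = 0.973 on log2(FPKM + 1)) and Ybx2 and Lsm14a were less so (r = 0.320). The latter pair had r = -0.701 with no ERCC scaling. All libraries share the stage differences and the ERCC factors.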
